A study of Mus musculus with 23 samples.

Results

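The SOX genes described here were 10 named genes of the 54347 in the table of estimated counts: Sox2, the noncoding transcript Sox2ot in whose span Sox2 lies, and the SOX family genes Sox4, Sox5, Sox6, Sox9, Sox11, Sox12, Sox13 and Sox21. They were taken by name, not by a measured value. They were followed in 23 RNA sequencing libraries, made with the Smart-seq2 protocol from the labial cervical loop of the lower incisor, the fold of epithelium at the root end of a tooth that grows throughout life. All libraries came from Sox2-GFP mice at postnatal day 2, a line in which the native Sox2 promoter drives green fluorescent protein. Cells were sorted by that fluorescence into Sox2-positive cells, termed dental epithelial stem cells in the labels, and Sox2-negative cells, on separate days and from different mice for batch A and batch B. Batch A gave 6 Sox2-negative and 6 Sox2-positive libraries, and batch B gave 4 and 7. Whether each library of a batch had its own mouse is not told by the labels, so n counts libraries, and the p-values measure the spread between libraries, which may be technical. The labels name the sort gate, the day and the mice as differences between groups, and no number of cells or mice.

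SOX proteins are transcription factors that bind the minor groove of DNA through a high mobility group box and bend it, and most of them act together with a partner factor. Family members with closely related sequences form lettered groups: Sox2 belongs to SOXB1 and Sox21 to SOXB2, Sox4, Sox11 and Sox12 form SOXC, Sox5, Sox6 and Sox13 form SOXD, and Sox9 belongs to SOXE. Sox2 is known as a regulator of pluripotent cells and of stem cells in several epithelia, the incisor included.

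Because the reporter reads the Sox2 promoter, and because the SOXC genes went opposite ways in the sorted cells, the 250 bases ahead of the RefSeq start of these 4 genes are shown in build GRCm38.p6, 5′ to 3′ on the strand of the gene. The windows are chr3:34649745-34649994 on the plus strand for Sox2, and, on the minus strand, chr12:27342719-27342968 for Sox11, chr13:28953700-28953949 for Sox4 and chr2:152398047-152398296 for Sox12. Capitals mark matches, on either strand, to CCAAT, the letters of the box bound by NF-Y, to ACAAT or ACAAAG, which are SOX core motifs, and to TATAAA, the TATA box.
Sox2: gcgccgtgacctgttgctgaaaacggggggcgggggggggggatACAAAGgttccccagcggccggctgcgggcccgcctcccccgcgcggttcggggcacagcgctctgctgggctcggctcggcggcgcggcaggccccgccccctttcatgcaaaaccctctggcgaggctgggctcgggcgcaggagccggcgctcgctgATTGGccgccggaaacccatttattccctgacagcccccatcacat
Sox11: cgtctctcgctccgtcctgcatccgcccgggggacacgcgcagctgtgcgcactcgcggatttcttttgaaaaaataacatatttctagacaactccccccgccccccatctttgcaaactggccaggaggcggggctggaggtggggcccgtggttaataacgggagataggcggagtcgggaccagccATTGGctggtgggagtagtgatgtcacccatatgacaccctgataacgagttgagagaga
Sox4: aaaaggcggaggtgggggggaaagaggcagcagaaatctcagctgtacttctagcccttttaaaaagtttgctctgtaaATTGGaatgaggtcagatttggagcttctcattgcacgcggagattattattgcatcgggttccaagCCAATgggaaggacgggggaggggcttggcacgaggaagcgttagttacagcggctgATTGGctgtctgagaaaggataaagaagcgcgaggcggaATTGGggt
Sox12: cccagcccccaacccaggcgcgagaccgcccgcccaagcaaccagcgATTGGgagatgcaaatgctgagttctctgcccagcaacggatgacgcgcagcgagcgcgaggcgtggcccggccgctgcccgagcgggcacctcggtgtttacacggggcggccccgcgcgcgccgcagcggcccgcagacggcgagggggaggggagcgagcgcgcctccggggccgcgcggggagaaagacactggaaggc
The Sox2 window held 1 match to CCAAT and 1 to ACAAAG. The Sox11 and Sox12 windows held 1 match to CCAAT each, and the Sox4 window held 4. No match to TATAAA or ACAAT was found in these 4 windows. Over all 32851 RefSeq promoter windows cut to the same length, 33.8% held CCAAT, 16.5% ACAAAG, 27.7% ACAAT and 12.4% TATAAA, so each motif found is also common elsewhere. Of the 10 genes, 8 had a promoter entry, and Sox9 and Sox2ot had none. In the GENCODE M21 annotation, Sox2, Sox4, Sox11, Sox12 and Sox21 each have a single block of exon, Sox9 has 3, Sox13 14, and Sox5 and Sox6 have 25 each.

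Levels are given as CPM, which are counts set to 1 common library size after scaling by the trimmed mean of M values (TMM). Genes with an adjusted p under 0.05 over all genes tested are termed called. Library totals ran from 2305778 to 9541443 counts, so that the floor of 3 counts lay between 0.357 and 1.30 CPM. Summed epithelial markers ran from 4410 to 6640 CPM in Sox2-positive libraries and from 170.0 to 501 CPM in Sox2-negative ones. Summed mesenchymal markers ran the other way, from 629 to 2000 CPM against 11300 to 14400 CPM. Glial and neural crest markers reached 1450 to 1750 CPM in batch A Sox2-positive libraries, with all 10 list genes detected, and 164 to 219 CPM in those of batch B. Endothelial and leukocyte markers were higher in batch A Sox2-negative libraries (means of 1220 and 1360 CPM) than in those of batch B (327 and 316 CPM), while erythroid markers went from 1090 to 56700 CPM between the same groups. Summed ameloblast markers averaged 324 CPM in Sox2-positive libraries of batch A and 8.48 CPM in those of batch B. Their sums were higher in the Sox2-negative libraries, at a mean of 867 CPM for batch A and 656 CPM for batch B. Chondrocyte markers averaged 33.3, 9.11, 56.4 and 17.6 CPM, neuronal markers 16.1, 8.39, 9.46 and 5.77 CPM, and melanocyte markers 59.2, 43.0, 96.3 and 62.2 CPM in the order batch A negative, batch A positive, batch B negative and batch B positive. The part of these markers in the results below was not tested. In sorted bulk samples, fewer cells of a type and less RNA per cell cannot be told apart.

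Sox2 checks the sort. In batch A Sox2-positive libraries its lowest, median and highest levels were 2.55, 6.50 and 12.9 CPM, from at least 14 counts, while 5 of 6 Sox2-negative libraries had no count and library 4 had 1 count, or 0.262 CPM. In batch B Sox2-positive libraries the levels were 13.3, 15.4 and 20.4 CPM, and the Sox2-negative libraries had 1.19, 0, 0 and 0 CPM. No Sox2-negative library reached the lowest Sox2-positive one of its batch. The difference in mean level was 7.23 CPM in batch A (two-sided exact permutation p = 0.00216) and 16.1 CPM in batch B (p = 0.00606), in each case the smallest p that the exact test allows. Against the floor of 3 counts per library, Sox2 was at least 9.85-fold higher in Sox2-positive cells of batch A. In batch B the ratio of means was 55.1, and without Sox2-negative library 1, the one library with 10 counts, Sox2 was at least 33.9-fold higher.

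Sox2ot, a long noncoding RNA transcribed across the Sox2 locus on the same strand, was also high in the Sox2-positive cells. Its annotated exons share no base with those of Sox2, so the counts of the pair do not come from common exon sequence of this annotation. In batch A Sox2-positive libraries the lowest, median and highest levels were 6.86, 15.8 and 28.1 CPM, against 0, 0.129 and 0.785 CPM in Sox2-negative ones. In batch B the Sox2-positive libraries had 9.46, 13.4 and 16.3 CPM, and the Sox2-negative libraries 0.357, 0.600, 0.163 and 1.70 CPM. The populations did not overlap in either batch. Sox2ot was at least 23.2-fold higher in batch A, where the Sox2-negative mean lay under the floor of 3 counts, and the ratio of means in batch B was 19.0. edgeR called both Sox2 and Sox2ot in the fit of both batches (adjusted p = 1.79e-08 and 5.07e-09). Both genes passed the filter on low counts through the Sox2-positive groups, where they were high.

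The pair did not keep one proportion. In Sox2-positive libraries of batch A the level of Sox2ot averaged 17.1 ± 7.34 CPM (SD, n = 6) against 7.27 ± 4.41 CPM for Sox2, and in batch B it averaged 13.4 ± 2.74 CPM (n = 7) against 16.4 ± 2.91 CPM. The log2 ratio of Sox2 to Sox2ot counts was -1.36 ± 1.06 in batch A and 0.30 ± 0.357 in batch B, and the ranges, -3.11 to -0.21 and -0.136 to 0.803, did not overlap. A two-sided exact permutation test of the ratio gave p = 0.00117 (adjusted p = 0.0036 over 10 ratio comparisons that were chosen after the levels had been seen). Sox2 itself had no overlap between batches among the Sox2-positive libraries, with a log2 difference of 1.17 ± 0.605 (SE), which edgeR did not call (adjusted p = 0.266) and limma-voom did (adjusted p = 0.00423).

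**Figure D1:**
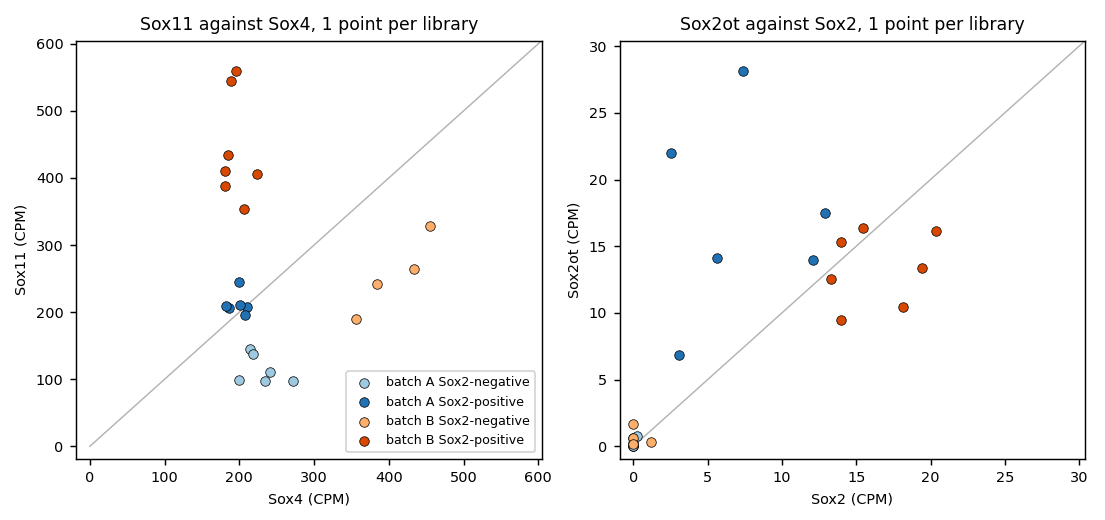
Level of Sox11 against Sox4 (left) and of Sox2ot against Sox2 (right), both axes in CPM, with 1 point for each of the 23 libraries coloured by group and a grey line where the levels are equal. Sox11 lies above the line only in Sox2-positive libraries, and the Sox2-negative libraries sit at or near 0 for Sox2 and Sox2ot.

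Of the 10 genes, 7 were called in the fit of both batches, 4 higher and 3 lower in Sox2-positive cells, where 57.5% of the 17190 genes tested were called (24.9% higher and 32.5% lower). Sox2, Sox2ot, Sox9 and Sox11 were higher, Sox4, Sox5 and Sox12 were lower, and Sox6, Sox13 and Sox21 were not called. All 10 passed the filter on low counts in that fit. In batch A alone 5 of the 9 that passed were called (Sox2, Sox2ot, Sox9, Sox11 higher and Sox12 lower), beside 43.4% of all genes (19.3% higher and 24.2% lower). Batch B alone gave 7 calls among 9, in the same directions as in the fit of both batches, beside 54.7% of all genes (27.1% higher and 27.6% lower). Sox21 did not pass the filter in the fits of single batches.

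**Figure D2:**
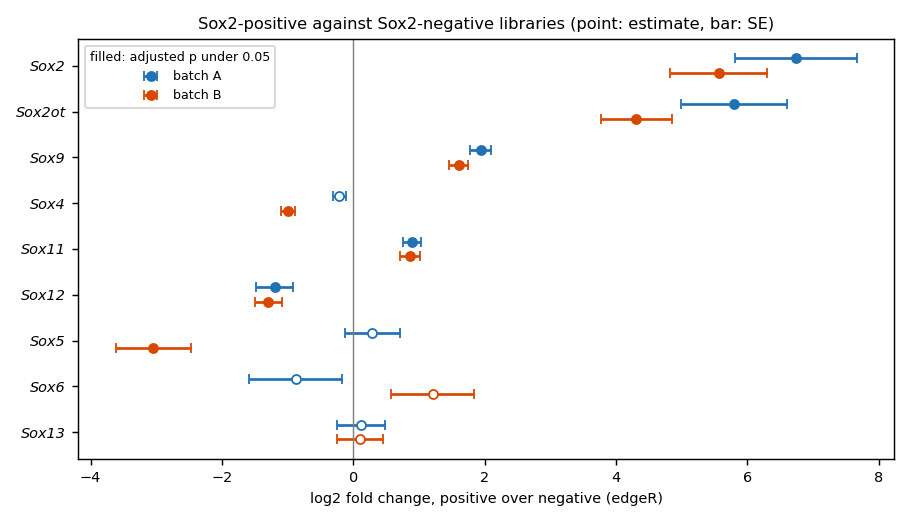
Log2 fold change of Sox2-positive over Sox2-negative libraries (x axis) for 9 SOX genes in batch A (blue) and batch B (orange), with bars for the standard error and filled points where edgeR's adjusted p was under 0.05. Sox9 and Sox11 lie right of 0 and Sox12 left of 0 in both batches, while Sox4 and Sox5 differ between the batches; values of Sox2 and Sox2ot depend on the prior for groups near 0 counts.

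Sox9, a SOXE factor known for cartilage formation and for stem and progenitor cells of several epithelia, rose in the Sox2-positive cells. Its lowest, median and highest levels were 43.3, 58.7 and 73.5 CPM in batch A Sox2-negative libraries and 183, 225 and 255 CPM in Sox2-positive ones. In batch B the Sox2-negative libraries had 146, 96.0, 95.2 and 115 CPM, and the Sox2-positive ones 270.1, 326 and 383 CPM. The 4 groups followed each other with no overlap, in the order batch A negative, batch B negative, batch A positive, batch B positive. Sox9 was higher by 1.94 ± 0.158 (log2, SE) in batch A, 1.61 ± 0.142 in batch B and 1.75 ± 0.116 over both (edgeR adjusted p = 7.86e-08, 1.16e-07 and 9.95e-13). The difference between those batch values, -0.40 ± 0.205, was not called (adjusted p = 0.285).

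The SOXC genes encode activators with closely related DNA-binding and activation domains that act in progenitors of many tissues, neural and mesenchymal ones among them. In the incisor libraries they did not move together. Sox11 rose in Sox2-positive cells, Sox12 fell, and Sox4 fell in batch B.

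Sox11 had its lowest, median and highest levels at 97.0, 105 and 146 CPM in batch A Sox2-negative libraries and at 196, 208 and 244 CPM in Sox2-positive ones. In batch B the Sox2-negative libraries had 329, 264, 190.1 and 242 CPM and the Sox2-positive libraries 353, 410 and 560 CPM. The populations of each batch did not overlap, while batch A Sox2-positive and batch B Sox2-negative libraries did. The log2 difference was 0.90 ± 0.133 in batch A and 0.86 ± 0.154 in batch B (edgeR adjusted p = 5.18e-05 and 0.000197), and 0.84 ± 0.105 over both (adjusted p = 1.39e-07).

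Sox12 had 27.5, 44.1 and 57.0 CPM as lowest, median and highest levels in batch A Sox2-negative libraries, and 10.9, 18.3 and 25.2 CPM in Sox2-positive ones. In batch B its Sox2-negative libraries had 70.2, 91.4, 53.6 and 69.0 CPM, and its Sox2-positive libraries 17.4, 27.7 and 36.4 CPM. Every Sox2-positive library lay under every Sox2-negative one of its batch. Sox12 fell by 1.19 on the log2 scale in batch A (SE 0.281, edgeR adjusted p = 0.00274) and by 1.29 in batch B (SE 0.202, adjusted p = 5.51e-05).

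Sox4 differed more between the populations in batch B than in batch A. Its lowest, median and highest levels were 199, 227 and 271 CPM in batch A Sox2-negative libraries and 182, 200.0 and 210.3 CPM in Sox2-positive ones, and the ranges overlap. In batch B the Sox2-negative libraries had 456, 434, 356 and 384 CPM, all above the 181, 189 and 224 CPM of the Sox2-positive libraries. The log2 difference was -0.21 ± 0.102 in batch A (edgeR adjusted p = 0.107, or -0.29 and 0.0451 on counts thinned to equal depth) and -0.995 ± 0.103 in batch B (adjusted p = 7.1e-07). The difference between the batches, -0.85 ± 0.139, passed its own test (adjusted p = 0.000207), as the difference for Sox5 did. Of all genes 7.04% passed that test, 2.82% with a higher and 4.22% with a lower difference in batch B. In M21 the antisense lincRNA Gm26735, which was not analysed here, overlaps 2616 bases or 54.6% of the exon length of Sox4, and since the strand setting of the counting is not given in the sources used here, reads of the 2 genes cannot be told apart.

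The level of Sox11 against that of Sox4 separated the populations of each batch. The log2 ratio of Sox11 to Sox4 counts averaged -1.02 ± 0.355 in batch A Sox2-negative libraries and 0.10 ± 0.141 in Sox2-positive ones, and -0.69 ± 0.178 and 1.17 ± 0.292 in batch B. These ratios differed by 1.12 in batch A and 1.86 in batch B (two-sided exact permutation p = 0.00216 and 0.00606, adjusted p = 0.0036 and 0.00673), with no overlap in either. Such a ratio does not depend on the scaling of the libraries. The ratio of Sox12 to Sox11 was lower in Sox2-positive cells by about the same amount in each batch, with log2 differences of -2.11 and -2.17 (adjusted p = 0.0036 and 0.00673).

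**Figure D3:**
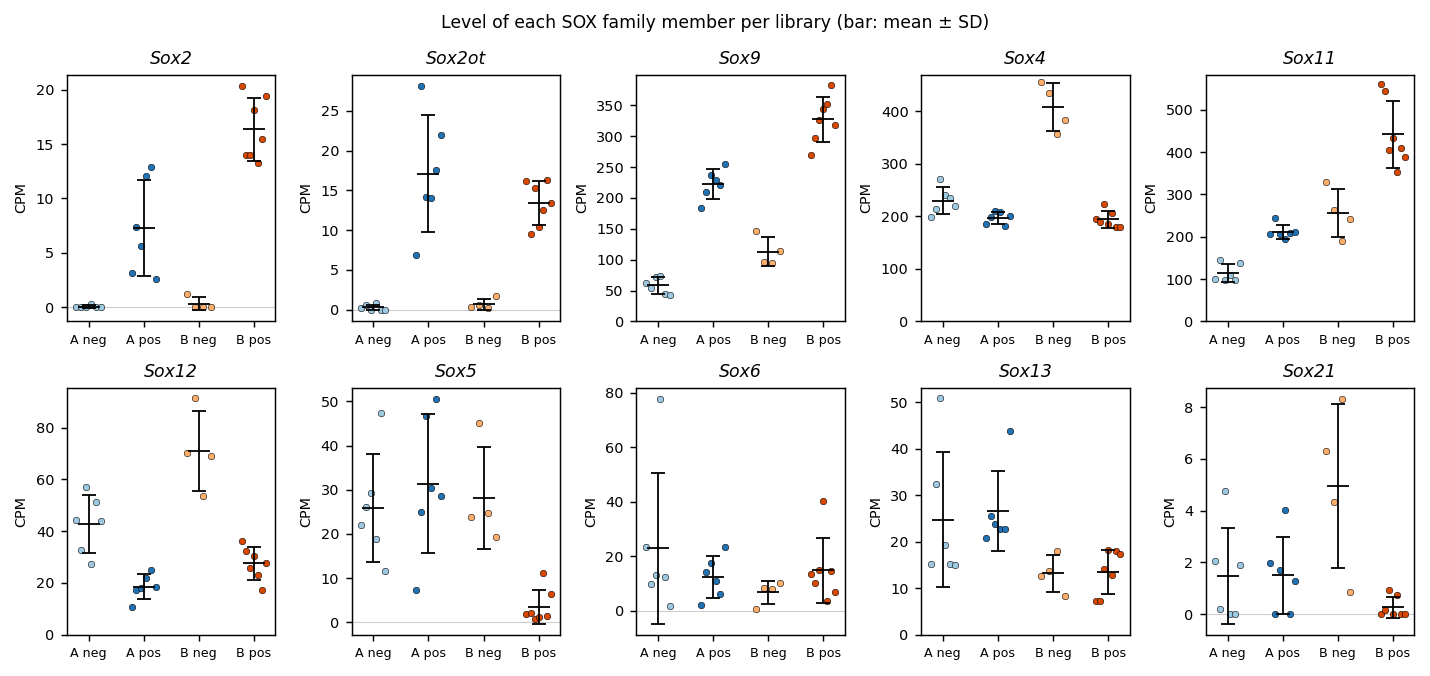
Level in CPM (y axis, from 0, own scale per gene) of each of the 10 SOX genes in every library, by group (neg and pos for Sox2-negative and Sox2-positive), with the mean and SD in black. The Sox9 groups do not overlap, Sox4 is highest in the 4 batch B Sox2-negative libraries, and Sox5 is lowest in the batch B Sox2-positive ones.

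The SOXD genes encode factors without an activation domain of their own, and Sox5 and Sox6 are known to assist Sox9 in cartilage. Sox5 overlapped among 3 groups and was low in batch B Sox2-positive libraries. Its lowest, median and highest levels were 11.6, 24.0 and 47.3 CPM in batch A Sox2-negative libraries and 7.31, 29.4 and 50.5 CPM in Sox2-positive ones. In batch B the Sox2-negative libraries had 23.8, 45.2, 24.8 and 19.2 CPM, against 0.767, 1.85 and 11.1 CPM in the Sox2-positive libraries. The populations overlapped throughout in batch A and not at all in batch B.

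Sox5 differed by 0.29 ± 0.419 in batch A (edgeR adjusted p = 0.605) and fell by 3.05 on the log2 scale in batch B (SE 0.571, adjusted p = 0.000292). The difference between the batches was -3.38 ± 0.75 (adjusted p = 0.00483). The pooled value, -1.30 ± 0.519 (adjusted p = 0.0349), averages 2 batches whose difference passed its own test, and its call was lost in 11 of the 23 fits that left out 1 library. Batch B libraries 1 and 2 had ranges of Sox11 and Sox12 apart from the other batch B libraries in both populations. Leaving them out gave -2.79 for the Sox5 difference between batches (adjusted p = 0.108) and -2.45 for batch B alone (adjusted p = 0.0304).

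Among Sox2-positive libraries Sox5 fell by 3.26 from batch A to batch B (SE 0.531, edgeR adjusted p = 9.82e-05), although the highest batch B library lay above the lowest of batch A. Glial and neural crest markers fell between the same libraries, from a mean of 1620 to 193 CPM, and all 10 of that list were called lower, beside 5.54% of all genes. Sox10, the SOXE factor of neural crest and glia, was at 198 ± 35.3 CPM (SD, n = 6) and at 8.38 ± 4.77 CPM (n = 7), and Foxd3, a neural crest factor, was at 9.31 and 0.313 CPM and had no count in Sox2-negative libraries. In Sox2-negative libraries of both batches Sox10 lay at or under 0.537 CPM, and Sox5 at 11.6 to 47.3 CPM. The part of glial and neural crest markers in the level of Sox5 was not tested in either population.

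Sox6 was not called between the populations by edgeR with its filter. Its lowest, median and highest levels were 1.61, 12.8 and 77.7 CPM in batch A Sox2-negative libraries and 1.99, 12.6 and 23.4 CPM in Sox2-positive ones. In batch B they were 0.713, 8.40, 7.99 and 10.2 CPM in the Sox2-negative libraries and 3.59, 13.6 and 40.2 CPM in the Sox2-positive ones. All groups overlapped. The log2 difference was -0.87 ± 0.708 in batch A (edgeR adjusted p = 0.34), or 0.06 without Sox2-negative library 4, and 1.21 ± 0.627 in batch B (adjusted p = 0.114). With no filter beyond 1 count the batch B difference was 1.25 and was called (adjusted p = 0.0241).

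Sox13 did not separate the populations, as its log2 difference was 0.11 ± 0.364 in batch A and 0.10 ± 0.345 in batch B (edgeR adjusted p = 0.823 and 0.82). It had lowest, median and highest levels of 15.05, 17.3 and 50.9 CPM in batch A Sox2-negative and 20.8, 23.2 and 43.8 CPM in Sox2-positive libraries. The batch B libraries had 12.6, 13.8, 18.1 and 8.33 CPM when Sox2-negative and 7.20, 14.1 and 18.2 CPM when Sox2-positive. Sox2-positive libraries of batch B thus all lay under those of batch A, a log2 difference of -0.98 ± 0.333 that edgeR did not call (adjusted p = 0.0618) and DESeq2 did (adjusted p = 0.0291).

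Sox21, a SOXB2 repressor known to oppose SOXB1 activators, lay near the floor. Batch A libraries ran from 0 to 4.75 CPM in Sox2-negative and from 0 to 4.03 CPM in Sox2-positive cells, with medians of 1.05 and 1.48 CPM. Batch B Sox2-negative libraries had 6.30, 4.35, 8.32 and 0.850 CPM, and the Sox2-positive libraries had 0, 0 and 0.920 CPM as lowest, median and highest. The batch B ranges overlapped only through Sox2-negative library 4. The pooled log2 difference was -1.95 ± 0.986 and was not called (edgeR adjusted p = 0.0917). On thinned counts it was -2.05 and was called (adjusted p = 0.0307), and in fits that left out 1 library its adjusted p ran from 0.0412 to 0.162. The antisense lincRNA Gm4675, which overlaps 18.8% of the exon length of Sox21, was at no more than 1.31 CPM in any library.

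Divided by exon length, the protein-coding genes can be set against each other. Sox4 held the highest per-length share of the 9 in Sox2-negative libraries, 50.5 ± 2.32% in batch A (SD, n = 6) and 51.3 ± 1.43% in batch B (n = 4). In Sox2-positive libraries Sox9 led instead, with 38.9 ± 1.70% in batch A (n = 6) and 41.3 ± 4.68% in batch B (n = 7), against 14.8 and 16.4% in the Sox2-negative libraries. Sox4 came second in batch A Sox2-positive libraries, at 30.0 ± 1.89%, and in batch B ones, at 21.2 ± 1.88%, it came after Sox11 at 27.8 ± 4.63%. In library 1 of that group Sox11, at 34.7%, also exceeded Sox9, at 33.6%. Sox2, the gene of the sort, made up 2.55 ± 1.51% and 4.16 ± 0.759% of the sum of the 9 genes in Sox2-positive libraries of batch A and B. Other SOX genes are not in this sum. Among these, Sox10 averaged 198 CPM in batch A Sox2-positive libraries and Sox18 98.6 CPM in batch A Sox2-negative ones. The shares thus rank the 9 genes only. Sox12 fell from 10.2 and 9.61% in the Sox2-negative groups to 3.01 and 3.23% in the Sox2-positive groups. These shares are a description without a test. With the median transcript length in place of all exons, Sox4 and Sox9 kept these first places, and the share of Sox5 in batch A Sox2-negative libraries went from 1.90 to 9.79%.

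**Figure D4:**
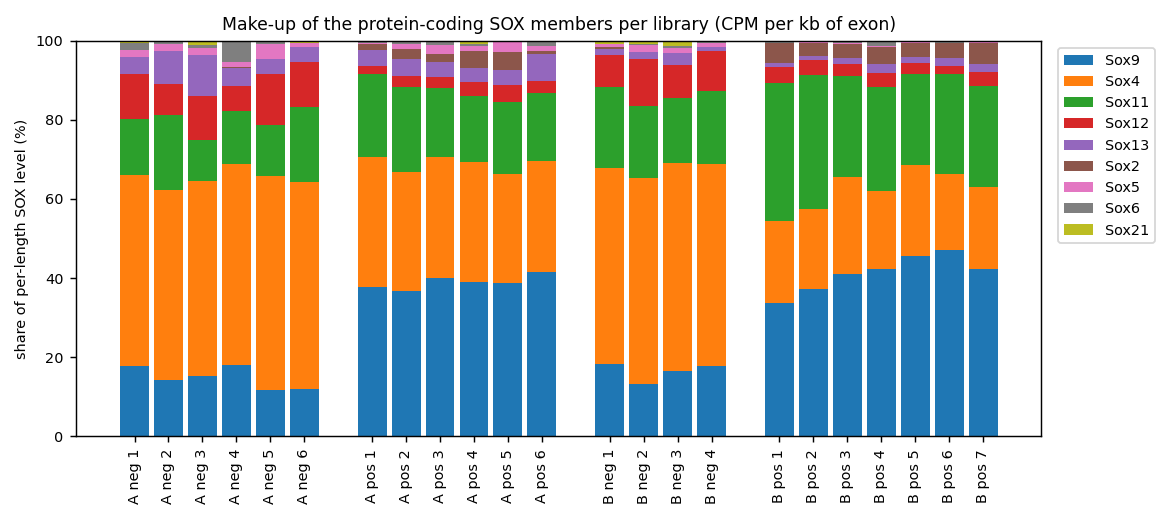
Make-up of the summed per-length level (CPM per kb of exon) of the 9 protein-coding SOX genes in each library, as stacked bars in percent. Sox4 (orange) takes 48.1 to 54.1% of each Sox2-negative bar, and Sox9 (blue) 33.6 to 47.2% of each Sox2-positive bar.

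Between batches, 3 of the 10 genes were called among Sox2-positive libraries (Sox9 and Sox11 higher and Sox5 lower in batch B), where 10.4% of genes were called (4.85% higher and 5.54% lower). Among Sox2-negative libraries 3 were called as well (Sox4, Sox9 and Sox11, all higher in batch B), beside 11.2% of genes (5.85% higher and 5.35% lower). Sox11 differed by 1.06 ± 0.135 (log2, SE) in Sox2-positive and 1.16 ± 0.152 in Sox2-negative cells (edgeR adjusted p = 2.69e-06 and 7.13e-06), and its batch ranges overlapped in neither. Sox9 differed by 0.56 ± 0.134 and 0.96 ± 0.155 (adjusted p = 0.00625 and 0.000128). Sox4 rose by 0.83 ± 0.104 in Sox2-negative cells (adjusted p = 4.31e-06), and in Sox2-positive cells its batch difference was -0.02 ± 0.0916 (adjusted p = 0.94). The wider gap of Sox4 between populations in batch B thus lay on the Sox2-negative side, and that of Sox5 on the Sox2-positive side. Over all genes, calls in batch B numbered 833 upward and 952 downward among Sox2-positive libraries, and 1005 and 919 among Sox2-negative ones. With total-count scaling these became 666 and 1214, and 661 and 1388. Day, mice and marker content differ together between the batches and cannot be told apart.

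**Figure D5:**
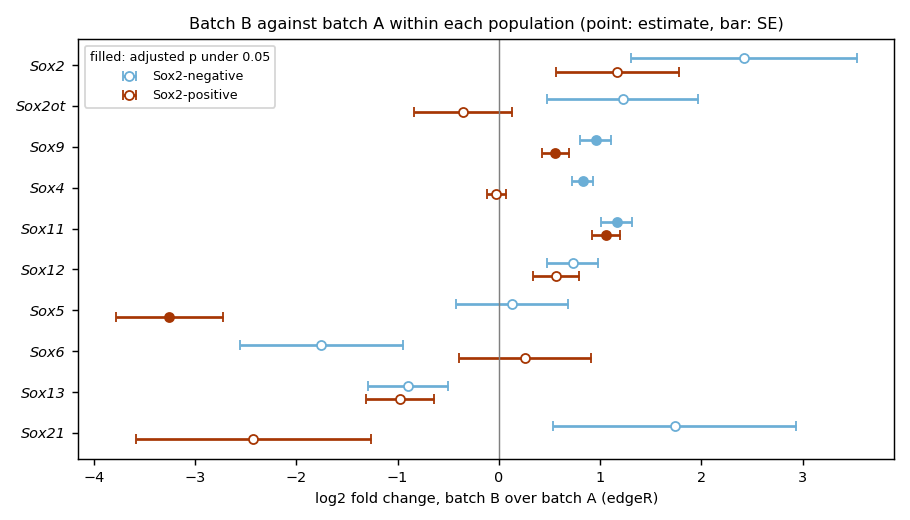
Log2 fold change of batch B over batch A (x axis) for each of the 10 SOX genes in Sox2-negative (light blue) and Sox2-positive (brown) libraries, with bars for the standard error and filled points where edgeR's adjusted p was under 0.05. Sox9 and Sox11 lie right of 0 in both populations, Sox4 only in Sox2-negative cells, and Sox5 lies at -3.26 in Sox2-positive cells.

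Batch B libraries 1 and 2 had ranges apart from those of the other batch B libraries in some of these genes. Among Sox2-positive libraries they had 545 to 560 CPM of Sox11 against 353 to 434 CPM in libraries 3 and up, and 7.20 to 7.24 CPM of Sox13 against 12.9 to 18.2 CPM. Sox9 was lower in the same libraries, at 270.1 to 296 CPM against 318 to 383 CPM. In Sox2-negative libraries 1 and 2, Sox4 was at 434 to 456 CPM against 356 to 384 CPM. Sox12 lay apart in both populations, and Sox11 in Sox2-negative libraries too. The other ranges overlapped: Sox2, Sox2ot, Sox5, Sox6 and Sox21 in both populations, Sox4 in Sox2-positive libraries, and Sox9 and Sox13 in Sox2-negative ones. Marker sums parted too. Sox2-positive libraries 1 and 2 had 4790 and 4560 CPM of epithelial markers against 6250 to 6640 CPM. Their chondrocyte and melanocyte sums also lay apart. In Sox2-negative libraries mesenchymal sums were 11600 and 11300 CPM against 13800 and 14400 CPM. Ameloblast, endothelial, erythroid, chondrocyte, neuronal and melanocyte sums lay apart there. The other marker sums overlapped or touched, and the part of markers was not tested. With so few libraries ranges can part by chance, and the share over all genes was not counted. Without libraries 1 and 2 the batch B differences of Sox9, Sox11, Sox12 and Sox4 were 1.75, 0.91, -1.28 and -0.89, and all remained called (edgeR adjusted p at most 0.00202).

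Within a sorted group no relation between the level of Sox2 and the other 9 genes was detectable at this number of libraries. Of 18 relations on log2(CPM + 1), 9 in the 6 Sox2-positive libraries of batch A and 9 in the 7 of batch B, 0 passed after adjustment. The smallest adjusted permutation p of Pearson's r was 0.762, and 0 of 18 had an unadjusted p under 0.05. For Sox12 in batch A, r was 0.722 (exact permutation p = 0.0847) with rho 0.60 (p = 0.242), and r was 0.937 without the 2 libraries farthest from the median. For Sox21 in batch B, r was -0.737 (exact permutation p = 0.0667) with rho -0.867 (p = 0.0286, adjusted p = 0.515), on Sox21 levels under 1 CPM, and r was -0.714 without the 2 farthest libraries. For Sox2ot, r was 0.227 in batch A and 0.212 in batch B (exact permutation p = 0.668 and 0.623), with rho 0.0286 and 0.286.

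Over the 23 libraries, which share the sort and the batches, the log2 CPM profile of Sox2 was most like those of Dapl1, Bnc1, Trpv6, Tmprss13 and Sfn (Pearson's r of 0.969, 0.965, 0.964, 0.959 and 0.954) among 11085 genes past the filter with a mean of at least 10 CPM. Bnc1 encodes the zinc finger protein basonuclin of basal keratinocytes, and Trpv6 a calcium channel. Bnc1 was at 25.2 and 75.0 CPM in Sox2-positive libraries of batch A and B and at 0.0431 and 0.0408 CPM in Sox2-negative ones. Among the 13 Sox2-positive libraries with each batch mean removed, the most alike were Tax1bp3, Prpsap1, Tank, Rbm15b and Adamts7, with r from 0.859 to 0.926, and none of the first 5 was among them. Sox9 was most like Sfn, Krt5 and Dlx2 (r of 0.969, 0.96 and 0.96), Krt5 being a keratin of basal epithelium, and Sox2ot most like the epithelial adhesion gene Epcam (r of 0.972). Sox5 was most like Mef2c, Ckb and Fign, with r of 0.86 to 0.864, and Ckb, a creatine kinase, had 159, 116 and 183 CPM in the other groups against 15.8 CPM in batch B Sox2-positive libraries. The highest r for Sox6 was 0.648, the lowest such value of the 10 genes. These are descriptions over libraries, with no test.

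SOX2 acts on DNA with partner factors. Of 14 such factors listed, 9 passed the filter in the fit of both batches, 3 were called higher and 4 lower, beside 24.9% and 32.5% of all genes, with a median log2 difference of -0.54 against -0.118 over all genes tested. Pou3f1, a POU factor of keratinocytes and Schwann cells, was at 24.7 CPM in batch A Sox2-positive libraries and at no more than 0.831 CPM as a mean in each other group. It passed the filter through that 1 group, where summed glial and neural crest markers were at 1620 CPM against at most 193 CPM as a mean elsewhere, and their part was not tested. Chd7, a chromatin remodeller reported to bind SOX2, was higher by 0.54 ± 0.202 over both batches (edgeR adjusted p = 0.0236), by 1.17 in batch B (adjusted p = 0.00121) and by 0.12 in batch A, where it was not called (adjusted p = 0.734). The pluripotency factor Klf4 fell by 2.55 over both batches (SE 0.238). Its log2 difference was -1.68 in batch A and -3.42 in batch B. The difference between these batch values, -1.81 ± 0.309, was called (edgeR adjusted p = 0.000337). Lef1, a Wnt effector, fell by 4.28 (SE 0.512), and Sall4 was also called lower. Sall4 passed the filter through the Sox2-negative groups, with means of 15.1 and 9.54 CPM against 0.0694 and 0 CPM. Pou2f1 was called lower over both batches (adjusted p = 0.0397) and in neither batch alone (adjusted p = 0.107 and 0.277). Ctnnb1, which encodes beta-catenin, and Nanog were not called, and Pou5f1, Pou3f2, Pou3f3, Pax6 and Esrrb did not pass the filter.

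Of 11 cartilage genes known as targets of SOX9, SOX5 and SOX6, 8 passed the filter, 1 was called higher in Sox2-positive cells and 5 were called lower, beside 24.9% and 32.5% of all genes, with a median of -3.01. Col9a3 rose by 2.22 ± 0.219 (edgeR adjusted p = 2.31e-09), from 27.1 to 152 CPM in batch A and from 30.0 to 112 CPM in batch B, in the direction of Sox9. Col11a1 fell by 5.07 (SE 0.263), and Col9a2, Col11a2, Hapln1 and Acan were called lower too. Acan passed the filter through the Sox2-negative groups, with means of 6.50 and 4.12 CPM against 0.0336 and 0.165 CPM. Col2a1, the main cartilage collagen, was at 7.28 to 14.0 CPM in the 4 groups as means and was not called (adjusted p = 0.462). Mesenchymal markers fell between the same libraries, from means of 12700 and 12800 CPM to 1620 and 674 CPM, with Twist1 at 0 in the Sox2-positive libraries, and their part in this list was not tested.

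Of 4 genes known as targets of SOXC factors, all passed the filter and 1 was called over both batches (edgeR), in the lower direction. Beside it, 57.5% of all genes were called in either direction and 32.5% lower. The median over both batches was -0.118, the same as over all genes. In batch A alone 1 was called higher and 1 lower among 3 genes, beside 19.3% and 24.2% of all genes. In batch B alone 1 was called higher and 2 lower among 4, beside 27.1% and 27.6%. Ezh2, a histone methyltransferase, fell by 0.92 (SE 0.156, adjusted p = 1.47e-05). Tubb3, a neuronal tubulin, went opposite ways, from 52.9 to 154 CPM in batch A and from 115 to 39.3 CPM in batch B, with a difference between batches of -3.10 ± 0.333 (adjusted p = 5.91e-07). Dcx, a microtubule protein of young neurons, was at 8.25 CPM in batch B Sox2-positive libraries and at no more than 0.659 CPM as a mean in each other group. It passed the filter through that 1 group, so its calls are not independent of the filter. It was called higher in batch B, by 4.83 ± 0.759 (edgeR adjusted p = 5.78e-05). Its difference between batches was 5.47 ± 1.51 (adjusted p = 0.0252). Tead2 was not called (adjusted p = 0.0714).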

How the data were processed

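Per the labels' protocols, RNA of sorted cells was made into libraries with Smart-seq2 and Tn5 tagmentation. Per the submitters' processing notes, FastQC, Trimmomatic and Salmon were used with build mm10; versions, annotation and strand setting are not given in the sources used here. The table the authors deposited holds estimated counts (expected counts) per gene, unscaled, which were rounded to whole numbers for every test. Of 54347 gene identifiers, 54094 (99.5%) matched GENCODE M21 by Ensembl identifier without version. Per-sample columns left unused numbered 0. Libraries of 1 group differed beyond sampling noise, with a chi-square per degree of freedom of at least 5.46.

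Tests used edgeR 4.0.16 in R 4.3.3 (TMM, filterByExpr over the groups, quasi-likelihood F test, Benjamini-Hochberg over all genes tested, two-sided). The population difference over both batches had batch as a covariate, a model of the 4 group means gave the differences between batches and the population by batch interaction, and single batches were fitted alone. The SE is the log2 fold change divided by the square root of F. Exact permutation tests double the smaller tail. The floor of 3 counts covers counting error only, as the reads carry no molecular identifiers that would mark independent molecules. Alternatives were DESeq2 1.42.0, limma 3.58.1 (voom with quality weights), RLE and total-count scaling, other filters, counts thinned to 2305588 per library, a replicate block, batch B libraries 3 and up, leaving out each library, and a pseudocount of 0.1 in place of 1 CPM. Counts of 17190 genes were simulated for the fit of both batches, with 100 genes changed by 1 on the log2 scale and 100 by 2. The other genes were left unchanged. Of the genes changed by 1 and by 2, 37% and 81% were called. Like simulations gave 17% and 57% for batch A alone, 36% and 73% for batch B alone, and 6% and 43% for the interaction. For the differences between batches they gave 32% and 46% in Sox2-positive cells, and 24% and 53% in Sox2-negative cells. A missing call in these fits thus tells little about a small difference. In the data 57.5% of genes were called, which alters the adjustment, so these rates may not hold there.

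All 10 genes are named. Genes of like profile were the 5 (Sox2) or 3 (others) with the highest r. The genes and lists (markers, other SOX genes, SOX2 partners, cartilage targets, SOXC targets) were chosen with earlier results of these data known. The values of 1 gene of the SOX2 partner list are not reported here. Promoter windows come from RefSeq (GRCm38.p6). ATAC-seq libraries named in the design text were not analysed here.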

Additional observations from a re-analysis of the deposited data

Results flagged for a closer look

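In 6 of 40 groups of 4 to 7 libraries, 1 library stood apart from the others of its group by Dixon's test, where chance flags about 1 in 20 groups. For 2 of the 6 that rate does not apply, since all other libraries of the group had no count and any count would have been flagged. These were Sox2 in the Sox2-negative groups, at 0.262 CPM in batch A library 4 and at 1.19 CPM in batch B library 1. Sox6 was at 77.7 CPM in batch A Sox2-negative library 4, where the next highest library had 23.3 CPM, and at 40.2 CPM in batch B Sox2-positive library 4, where the next had 14.9 CPM. Sox11 was at 244 CPM in batch A Sox2-positive library 2, above the next at 211 CPM. Sox13 was at 43.8 CPM in batch A Sox2-positive library 6, above the next at 25.5 CPM.

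The population difference itself differed between batches for 2 of the 10 genes by edgeR's test of the interaction. It was lower in batch B by 3.38 on the log2 scale for Sox5 (an interaction of -3.38) and by 0.85 for Sox4 (-0.85). For Sox5 it was not called without batch B libraries 1 and 2, and for Sox4 it was (adjusted p = 0.0188).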

How the results depend on the processing

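The number of SOX genes called held within 1.5 times under each alternative, apart from 1 call of the interaction with batch B libraries 3 and up (Sox4, while Sox5 had -2.79 with adjusted p = 0.108) and 5 calls between batches in Sox2-positive cells by limma-voom. Leaving out 1 library gave 6 to 8 calls over both batches, 5 in batch A, 7 to 8 in batch B, 2 for the interaction, and 3 to 4 for either difference between batches. The Sox2 difference then ran from 6.10 to 8.17 CPM in batch A and from 15.4 to 16.6 CPM in batch B.

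No pairing by replicate number was seen: deviations of same-numbered libraries correlated at -0.0212 to 0.0444 over 10 pairs. Among the Sox2-negative libraries of these 10 pairs, 1 was most like the Sox2-positive library of its own number. Such correlations cannot show whether 2 libraries shared a mouse or a sort. With a replicate block 6 genes were called over both batches, 5 in batch A, 7 in batch B, 2 for the interaction and 3 for each difference between batches, and Sox5 over both batches was -1.38 (adjusted p = 0.122). Under the block Sox6 over both batches changed sign to 0.48, Sox13 in batch B to -0.19, and the interactions of Sox11 and Sox12 to 0.0303 and 0.0283.

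Sox5 over both batches lost its call by limma-voom (-0.81, adjusted p = 0.139), total-count scaling (-1.16, adjusted p = 0.0539) and batch B libraries 3 and up (-0.62, adjusted p = 0.313). Calls were gained on thinned counts by Sox21 over both batches (-2.05, adjusted p = 0.0307) and Sox4 in batch A (-0.29, adjusted p = 0.0451), and with no filter by Sox6 in batch B (1.25, adjusted p = 0.0241). Values that were not called changed sign. Sox6 over both batches became 0.69 (limma-voom), 0.0913 (total-count scaling), 0.0687 (no filter) and 0.0157 (mean of at least 10 counts). The Sox2 interaction became 1.07 (limma-voom) and 2.45 (batch B libraries 3 and up), and with those libraries the Sox13 interaction was 0.16 and the differences between batches in Sox2-negative cells were -1.32 for Sox2 and -0.23 for Sox5, the latter -0.0296 with total-count scaling. Pearson's r of Sox2 with Sox4 and Sox6 in batch A became 0.00747 and 0.0203 with a pseudocount of 0.1.

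Leaving out 1 library gave these ranges for the values that changed sign: -0.21 to 0.55 (Sox6, both batches), -1.14 to 0.0558 (Sox6, batch A), -0.0747 to 0.46 (Sox13, batch A), -0.0602 to 0.30 (Sox13, batch B). For the interaction they were -2.68 to 2.54 (Sox2), -0.23 to 0.0348 (Sox11) and -0.42 to 0.15 (Sox13). Between batches they were -0.0565 to 0.0023 (Sox4) and -0.21 to 0.55 (Sox6) in Sox2-positive cells, and -1.36 to 3.86 (Sox2) and -0.18 to 0.39 (Sox5) in Sox2-negative cells. The cause of these changes was not tested. Total-count scaling moved the median of all genes by 0.121 over both batches and by -0.149 between batches in Sox2-negative cells. Depth limits Sox2 and Sox21, which lay at or near the floor of 3 counts in some groups.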

Other observations

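Of 8 SOX genes listed outside the 10 and outside SOXE (Sox1, Sox3, Sox14, Sox7, Sox17, Sox18, Sox15 and Sox30), 4 passed the filter in the fit of both batches, 1 called higher and 3 lower in Sox2-positive cells by edgeR, beside 24.9% and 32.5% of all genes. Each of these 4 passed the filter through the population where it was high. The calls and their directions thus follow largely from the filter, and the shares over all genes are no like comparison. Sox7, Sox17 and Sox18, the SOXF genes of endothelium, were the 3 lower ones. Sox18 averaged 98.6 and 49.9 CPM in Sox2-negative libraries of batch A and B and 0.149 and 0.573 CPM in Sox2-positive ones. Sox7 averaged 31.7 and 6.89 CPM against 0 and 0.0241 CPM, and Sox17 27.1 and 5.61 CPM against 0.332 and 0 CPM. Summed endothelial markers moved with them, from 1220 and 327 CPM to 27.9 and 28.3 CPM, and their part was not tested. Sox15 was the higher one, at 2.51 and 1.40 CPM against 0.0448 and 0.302 CPM. Sox3, a SOXB1 gene like Sox2, did not pass the filter. No Sox2-negative library had a count of Sox3. Batch A Sox2-positive libraries held 15 counts in all, with no count in 4 of the 6 and a highest level of 2.07 CPM. Those of batch B held 2 counts, with no count in 6 of the 7 and a highest level of 0.363 CPM. Between batches, Sox7 was the only one of the 4 called, lower in batch B among Sox2-negative libraries (adjusted p = 0.013).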
